A study of Mus musculus with 6 samples.

Results

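MHC class II-high cells were picked out of single-cell transcriptomes of leukaemic mouse bone marrow by their transcripts. Kept cells had 500 or more genes detected, with mitochondrial genes giving no more than 10% of their unique molecular identifiers (UMIs, 1 per captured RNA molecule). A kept cell became a member with at least 5 UMIs over H2-Aa, H2-Ab1 and H2-Eb1 and 0 UMIs of each of Cd79a and Cd79b (B cells), Siglech (plasmacytoid dendritic cells) and C1qa, C1qb and C1qc (macrophages). These limits found 656 members among 44672 kept cells (1.47%). They were 32.2% of the 2040 kept cells with at least 5 MHC class II UMIs. Members were thus chosen by the UMIs of those 9 genes, which are described below with no test.

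The marrow came from mice with acute myeloid leukaemia, and each of 6 libraries was a group of its own. Of these, 4 carried the MLL-AF9 fusion (MA9) with Shp-1 f/f or Shp-1 Δ/Δ, and each genotype was given PBS or Arac+Dox. The other 2 carried Hoxa9-Meis1 (HM), were titled Shp-1 f/f, and were given PBS or Arac+Dox. Per the labels, the leukaemias arose from mouse embryonic stem cells that received the driver, marrow was flushed and red cells were lysed, and no sort for a marker was named. The age, sex and strain of the mice, the number of mice per library, and how Shp-1 was deleted are not named in these sources. With 1 library per group there was no test between groups, and every interval on a share or a ratio covers counting error only.

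Shp-1 is the tyrosine phosphatase encoded by Ptpn6. Among kept cells that were not members, Ptpn6 stood at 185 counts per 1000000 UMIs (CPM) under the MA9 label f/f PBS and 172 in the MA9 library labelled Δ/Δ PBS. It stood at 57.6 in the MA9 library labelled f/f Arac+Dox and 43.7 in the MA9 library labelled Δ/Δ Arac+Dox. In members these libraries gave, in the same order, 275.5, 245.4, 92.82 and 38.65 CPM. Ptpn6 was therefore similar in both PBS libraries of MA9, whatever their label, and low in both given Arac+Dox. The labels do not say whether the deleted piece holds the counted 3′ end. Groups are called libraries labelled as such throughout, and each direction between them rests on labels that Ptpn6 did not bear out.

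Kept cells held between 15111411 and 103581646 UMIs per library. The HM PBS library stood apart: 74.7% of its barcodes were over the mitochondrial limit against 1.83% to 8.33% elsewhere, and 2755 of 12474 barcodes were kept. No member barcode was shared between libraries, while 145 kept barcodes were shared among MA9 libraries and 6 among HM libraries.

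MHC class II molecules are heterodimers that carry peptides of engulfed protein to the cell surface for CD4 T cells to read. H2-Aa and H2-Ab1 encode the chains of I-A, and H2-Eb1 encodes the beta chain of I-E. The invariant chain, encoded by Cd74, guides them to endosomes, where H2-DM helps to swap its remnant for peptide and H2-O restrains that step. The transactivator Ciita switches the whole set on. In marrow, conventional dendritic cells, B cells and some macrophages carry the most MHC class II, and conventional dendritic cells depend on the receptor Flt3.

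The class II genes share promoter elements, among them an inverted CCAAT box. The letters TGATTGG, or CCAATCA on the other strand, were searched in RefSeq promoters of 300 bases (GRCm38.p6). Of 9 class II family genes, 8 had an entry and 7 held the motif, against 2568 of 32851 promoters of all genes (7.82%). H2-Ab1 had no entry. The stretches below lie upstream of the start site, with the motif in capitals. The first pair belongs to genes of the selection rule, and the second pair to genes that differed in opposite directions between members and Cd79-rich cells.
H2-Aa, chr17:34287827-34287943, minus strand: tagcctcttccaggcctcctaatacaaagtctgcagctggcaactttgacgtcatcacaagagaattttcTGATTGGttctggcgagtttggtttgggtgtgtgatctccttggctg
H2-Eb1, chr17:34305736-34305852, plus strand: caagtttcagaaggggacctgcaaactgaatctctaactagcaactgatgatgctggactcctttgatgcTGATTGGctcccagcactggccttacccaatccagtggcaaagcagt
H2-DMb1, chr17:34153058-34153174, plus strand: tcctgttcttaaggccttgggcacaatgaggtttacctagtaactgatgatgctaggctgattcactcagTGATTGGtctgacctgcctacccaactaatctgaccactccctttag
H2-Ob, chr17:34238776-34238892, plus strand: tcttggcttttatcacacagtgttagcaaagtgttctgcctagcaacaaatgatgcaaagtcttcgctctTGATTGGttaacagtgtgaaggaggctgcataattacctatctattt
A match describes these letters and no more.

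Members were most frequent in the MA9 library labelled Δ/Δ Arac+Dox and in the HM Arac+Dox library. Under the label f/f PBS, MA9 gave 75 members (0.871% of kept cells, exact Clopper-Pearson 95% interval 0.685 to 1.09). The MA9 library labelled Δ/Δ PBS held 123 (1.30%, 1.09 to 1.55). The MA9 library labelled f/f Arac+Dox held 54 (0.554%, 0.416 to 0.722), and the MA9 library labelled Δ/Δ Arac+Dox held 282 (2.99%, 2.65 to 3.35). The HM PBS library held 9 (0.327%, 0.149 to 0.619) and the HM Arac+Dox library 113 (2.42%, 2.00 to 2.90). The libraries labelled Δ/Δ thus held larger shares than those labelled f/f under both treatments. The intervals of the PBS pair overlap at their ends, and those of the Arac+Dox pair lie apart. Between the libraries labelled f/f the share was lower with Arac+Dox, with intervals that overlap. Between those labelled Δ/Δ, and between those of HM, it was higher with Arac+Dox, with intervals that lie apart. These directions were not particular to members, except for that between the libraries labelled f/f. Class II-high cells with Cd79a or Cd79b UMIs and none of the other excluded genes numbered 19, 453, 43, 544, 3 and 157 in the order above. Between the libraries labelled f/f these cells were more frequent with Arac+Dox, at 43 of 9750 kept cells against 19 of 8614. Members were 67.0%, 19.7%, 51.9%, 31.7%, 75% and 37.9% of the class II-high cells of these libraries. Cells with at least 2500 UMIs were also thinned to 2500 and the rule applied again. Shallower cells were left out of every such thinning, here 952, 2056, 1071, 1472, 604 and 644 kept cells. Of the 656 members 114 were among them. The shares of the cells that remained were 0.822%, 1.22%, 0.553%, 2.71%, 0.279% and 2.06% in the order above, in the same rank order. The HM pair is the one in which library quality moved with the result: with no mitochondrial limit its shares were 0.151% and 2.32%.

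**Figure D1:**
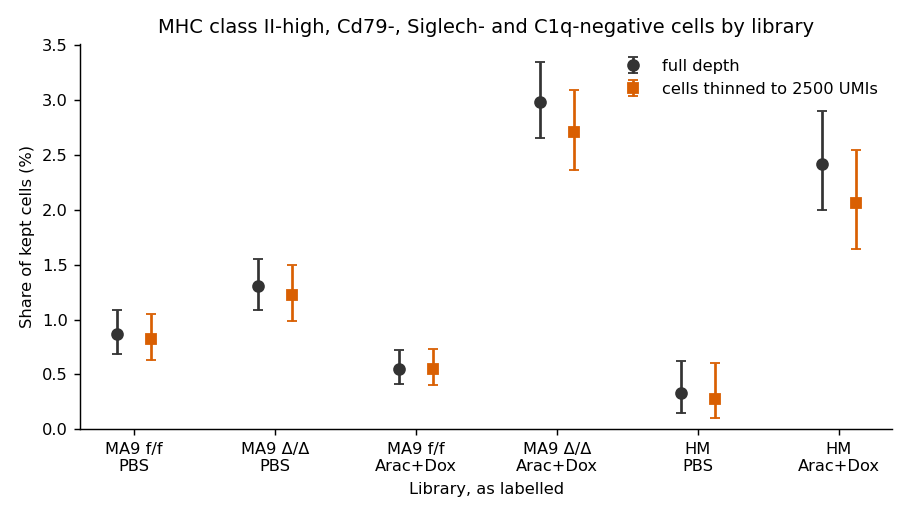
Share of kept cells that are members in each of the 6 libraries, as a percent with the exact 95% interval, at full depth (circles) and with cells of at least 2500 UMIs thinned to 2500 (squares, shallower cells left out). At full depth the MA9 library labelled Δ/Δ Arac+Dox (2.99%) and the HM Arac+Dox library (2.42%) lie above the other 4, which range from 0.327% to 1.30%.

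Members differed from the rest of their libraries in depth. Their median UMI count was 3882, 3955, 4076, 3415.5, 6381 and 11368, against 6675, 7463, 7776, 10112.5, 4021 and 6772.5 over all kept cells, in the same order of libraries. MA9 members were thus shallower than their libraries and HM members deeper. The median number of MHC class II UMIs per member ran from 16 in HM PBS to 67 in HM Arac+Dox, with 22 to 39 in MA9. Scrublet marked 10, 9, 3, 16, 0 and 3 members as doublets, 41 in all. Just inside the threshold stood 82 cells with 5 or 6 class II UMIs, of which 25.6% had a Flt3 UMI. Just outside it stood 138 cells with 3 or 4, of which 23.2% had one. The 518 members with at least 10 had a Flt3 UMI in 40.4%. These tiers differ in library and depth: 65 of the 138 cells came from HM Arac+Dox, at a median of 30543 UMIs.

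The genes of the rule were high in every library by construction, and Cd74 went with them. H2-Aa stood at 4093, 3281, 3171, 2501, 1699 and 3455 CPM in members, against 8.86, 41.8, 6.91, 43.3, 2.54 and 53.5 in the other kept cells. H2-Ab1 ran from 1754 to 3280 CPM and H2-Eb1 from 1160 to 2653. Cd74, which the rule did not use, stood at 10040, 7844, 7277, 6364, 4061 and 6264 CPM, against 14.8 to 147 in the other cells. The MA9 library labelled f/f PBS was highest for all 4 genes, and HM PBS was lowest.

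**Figure D2:**
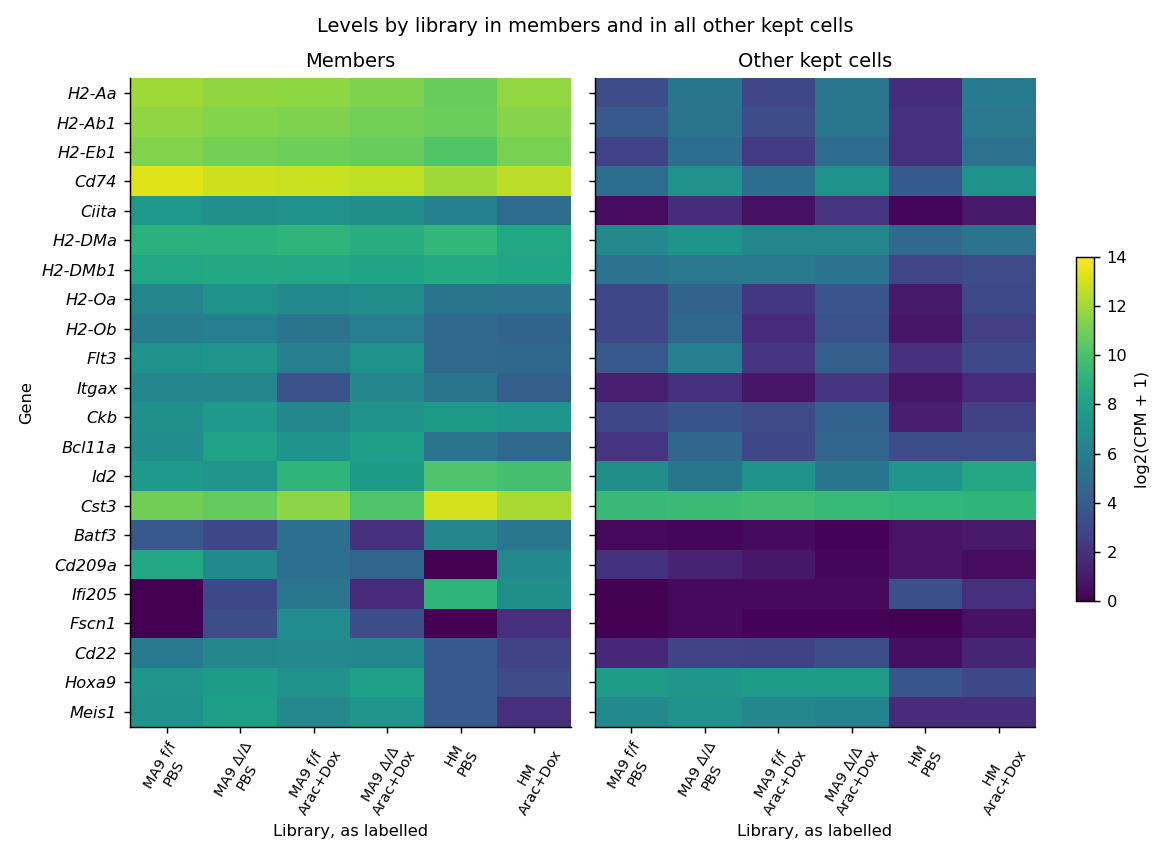
Level of class II genes, dendritic cell genes and leukaemia genes in members (left) and in the other kept cells (right) of each library, as colour on a scale of log2(CPM + 1). Cd74 lies at 4061 to 10040 CPM in members of every library and Hoxa9 lies at 141 to 256 CPM in MA9 members and at 172 to 210 CPM in the other MA9 cells.

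Members were set against the other kept cells of the same library in 5 libraries, HM PBS being too thin, with edgeR's quasi-likelihood test on summed UMIs and the library as a block. A gene was called at a Benjamini-Hochberg adjusted p under 0.05 and at least a 2-fold difference. The log2 folds below carry their standard error (SE). Of 13377 genes, 747 were higher in members (5.58%) and 483 lower (3.61%), and the median log2 fold was -0.13. The machinery of class II loading was higher in members: 11 of 20 genes tested were higher and 1 was lower, with a median log2 fold of 2.08. Leaving out any 1 library gave a count of 11 higher again. Members were picked by class II UMIs and Ciita switches class II genes on, so these counts are no independent result. Ciita stood at 173, 130, 141 and 125 CPM in the MA9 libraries, 69.1 in HM PBS and 30.0 in HM Arac+Dox, and was higher than in other cells by 6.18 ± 0.56 on the log2 scale (edgeR adjusted p = 5.9e-05). H2-DMa stood at 326 to 608 CPM and was higher by 2.30 ± 0.17. H2-DMb1 stood at 285 to 373 CPM and was higher by 3.17 ± 0.31. H2-Oa, a subunit of the H2-O restraint, was higher by 3.12 ± 0.30, and H2-Ob by 2.34 ± 0.32. Ctss, the endosomal protease that trims the invariant chain, stood at 423 to 792 CPM and was higher by 2.31 ± 0.20. Cd83, which stabilises class II at the surface, was higher by 4.37 ± 0.36 and was listed at 114 CPM in HM Arac+Dox against 22.3 to 31.2 in MA9. Rfx5, Rfxap and Rfxank, the subunits of the factor that binds class II promoters, did not pass, at 0.39, -0.09 and 0.11. March8, a ubiquitin ligase that draws class II off the surface, was lower at -1.29 ± 0.39, a call that DESeq2 and 4 of 5 leave-outs did not make.

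The genes of conventional dendritic cells were higher in members as a group, while several of the genes that define them most closely counted few UMIs. Of the 7 genes shared by conventional dendritic cells, 7 were called higher, with a median log2 fold of 3.42. Flt3 stood at 148, 165, 63.1, 138, 27.6 and 24.8 CPM against 14, 68.2, 3.59, 18.2, 2.94 and 7.53 in other cells, and was higher by 2.42 ± 0.36 (edgeR adjusted p = 0.0011). It was higher in members of all 6 libraries and lowest in both HM libraries. Itgax, the integrin CD11c, counted 31, 48, 3, 121, 3 and 31 UMIs, and was higher by 4.41 ± 0.43 (edgeR adjusted p = 8.1e-05). Its level was 11.1 CPM in the MA9 library labelled f/f Arac+Dox against 87.9 to 89.9 CPM in the other MA9 libraries. Bcl11a, a factor of dendritic and B lineages, was higher by 3.42 ± 0.39. Zbtb46, the factor that marks conventional dendritic cells, counted 0, 1, 3 and 2 UMIs in the MA9 libraries, 1 in HM PBS and 15 in HM Arac+Dox, and was higher by 3.81 ± 0.62. Its level was 0, 1.83, 11.1 and 1.49 CPM in the MA9 libraries, 13.8 in HM PBS and 8.67 in HM Arac+Dox, so that few molecules stand behind every value but the last. The word dendritic is therefore used below for gene lists and not for the members.

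Of 12 genes of type 1 conventional dendritic cells, 9 were higher and none lower, with a median of 3.33, and 6 to 8 higher when 1 library was left out. Without HM Arac+Dox 8 were tested and 6 were higher, the rest being counted well enough for a test only with that library in. Batf3, a factor needed for that type, counted 5, 4, 9, 4, 6 and 76 UMIs and was higher by 5.47 ± 0.43 (edgeR adjusted p = 2.9e-05). Xcr1, its chemokine receptor, counted 0, 0, 0, 1, 0 and 28 UMIs, and Clec9a, its receptor for dead cells, 0, 0, 2, 1, 3 and 37. Xcr1 stood at 16.2 CPM in HM Arac+Dox and at 0 or 0.743 elsewhere. Clec9a stood at 41.4 CPM in HM PBS, from 3 UMIs, at 21.4 in HM Arac+Dox and at 0 to 7.43 in MA9. Irf8, a factor of that type and of monocyte progenitors, was not called at 0.50 ± 0.25. Of 10 genes of type 2 conventional dendritic cells, 5 were higher, with a median of 1.51, and 3 were without the MA9 library labelled f/f Arac+Dox. Cd209a, a lectin of type 2 and monocyte-derived dendritic cells, counted 121, 56, 9, 31, 0 and 172 UMIs. It stood at 344, 102.5, 33.4, 23.04, 0 and 99.4 CPM, and was higher by 6.51 ± 0.34 (edgeR adjusted p = 5.8e-06). Its level under the MA9 label f/f PBS lay above all others. Irf4, a factor of type 2, was higher by 3.33 ± 0.48, while Sirpa was not called at 0.78. Of 12 genes of mature, migrating dendritic cells, 8 were higher with a median of 3.21. Relb, an NF-kappaB subunit, was higher by 2.34 ± 0.30, and the costimulator Cd40 by 3.89 ± 0.46. Ccr7, the receptor that leads dendritic cells to lymph nodes, was higher by 2.52 ± 0.73, a call that was lost without any of the MA9 libraries. Of 9 plasmacytoid genes tested, Siglech aside, 4 were higher, or 7 without HM Arac+Dox, among them Tcf4 by 1.60 ± 0.19 and Irf7 by 2.25 ± 0.34.

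Marker lists of other cell types went in different directions. Of 10 monocyte genes, 7 were higher, with a median of 1.60, among them Ccr2 by 2.03 ± 0.30 and Csf1r, the receptor of macrophage colony-stimulating factor, by 1.71 ± 0.25. Of 10 B cell genes, Cd79a and Cd79b aside, 4 were higher and 1 lower, with a median of -0.07. Cd22, a B cell receptor inhibitor, was higher by 3.46 ± 0.35, and Bank1, a B cell scaffold, by 2.61 ± 0.45. Of 10 neutrophil genes, 8 were lower, with a median of -2.17, and Camp, a granule peptide, was lower at -3.08 ± 0.41. All 6 granulocyte progenitor genes were lower, with a median of -2.18. Elane, neutrophil elastase, stood at 275.5, 80.6, 1025, 1825, 96.7 and 1258 CPM in members. The call on Elane at -2.46 ± 0.60 was lost without the MA9 library labelled f/f PBS or the MA9 library labelled f/f Arac+Dox. Of 5 basophil and mast cell genes, 5 were lower, with a median of -3.51, and 3 of 4 without HM Arac+Dox. The lower neutrophil count was 4 under DESeq2 and 0 with no block for the library, and the basophil and mast cell count was 2 and 0. The granulocyte progenitor count was 6 and 0.

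Some costimulatory and interferon-induced genes were also higher. Of 21 costimulatory or checkpoint genes, 9 were higher, with a median of 1.27, among them Cd86 by 2.42 ± 0.32. That count was 6 to 11 when 1 library was left out and 5 of 19 with no block. Cd80 was not called. Of 26 cytokine and chemokine genes, 4 were higher and 1 lower, and 21 were not called, with a median of 0.52; the higher count was 8 without HM Arac+Dox. Cxcl16, a membrane-bound attractant of T cells, was higher by 4.86 ± 0.41. Il12b, a subunit of the cytokine IL-12, was at 0 UMIs in 5 libraries and at 1 in HM Arac+Dox. Of 31 interferon-induced genes, 16 were higher and none lower, with a median of 1.59. That count was 9 without the MA9 library labelled Δ/Δ PBS, 6 without the MA9 library labelled Δ/Δ Arac+Dox, 7 without the MA9 library labelled f/f PBS, 10 without the MA9 library labelled f/f Arac+Dox and 22 without HM Arac+Dox, and with no block it was 5. Of 25 genes of class I presentation, 9 were higher, with a median of 0.76, and 5 after thinning to 2500 UMIs. Among 26 cell cycle genes 1 was lower, a count of 9 without HM Arac+Dox, 8 with doublets removed, 6 after thinning and 0 without the MA9 library labelled f/f Arac+Dox. Among 22 genes of glycolysis 2 were lower, a count of 8 with doublets removed and 10 after thinning, and of 1 to 5 when 1 library was left out, the most without HM Arac+Dox.

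The leukaemia-linked homeobox genes Hoxa9 and Meis1 were not called between members and other cells. Hoxa9 stood at 159, 201, 141 and 256 CPM in MA9 members, against 210, 172, 202 and 208 in other cells, a difference of -0.20 ± 0.17 that was not called. Meis1, its partner, stood at 145, 251, 96.5 and 160.5 CPM against 101, 145, 90.2 and 77.1, and was not called at 0.46 ± 0.18. In HM, members stood at 13.8 and 8.09 CPM for Hoxa9 and the other cells at 12.3 and 7.33. The labels do not say whether transcripts of the introduced Hoxa9-Meis1 count towards these genes.

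**Figure D3:**
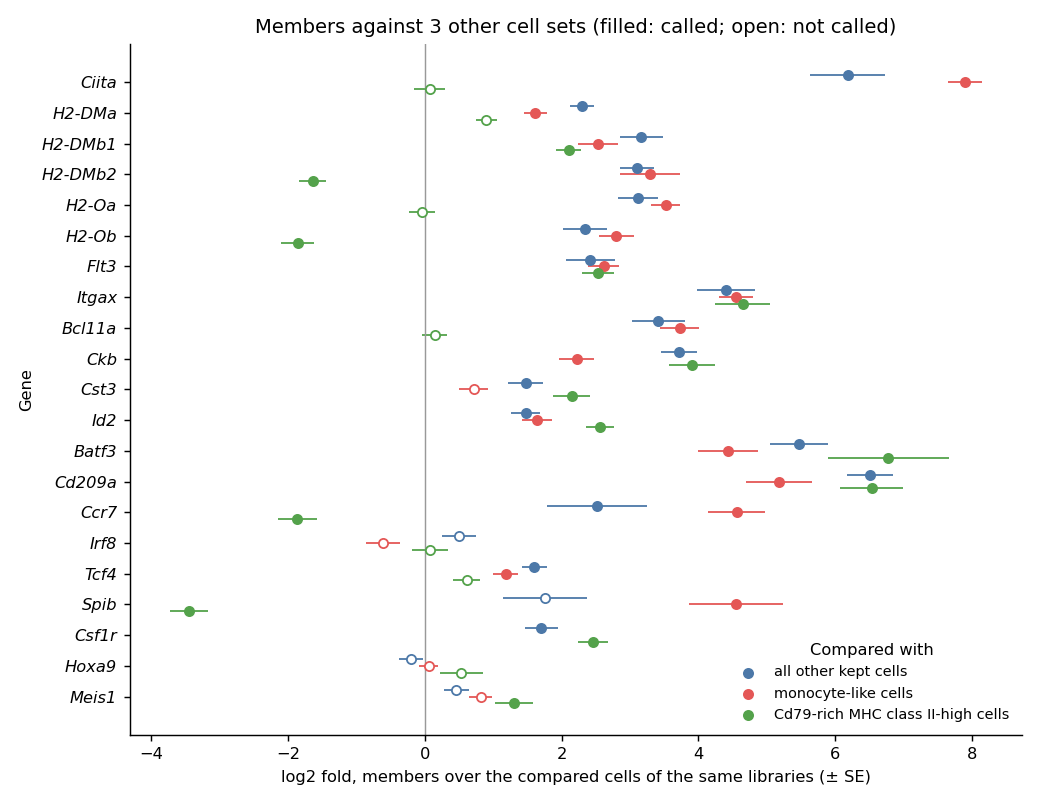
Log2 fold of members over the other kept cells, over monocyte-like cells and over Cd79-rich cells for named genes, from edgeR with its standard error; filled points passed the test. Cd209a is high against all 3 sets (6.51, 5.18 and 6.54), while Bcl11a is high against the first and second (3.42 and 3.73) and not against Cd79-rich cells (0.15).

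A second comparison asked how members differ from monocyte-like cells of the same libraries. These were 3231 kept cells with at least 3 UMIs over Csf1r, Fn1 and F13a1, fewer than 5 class II UMIs and none of the excluded genes. In MA9 their median was 5848 to 12407 UMIs and in HM 10851 and 13090, in each library above that of members. Of 10702 genes, 586 were higher in members (5.48%) and 193 lower (1.8%). Class II loading genes were higher in 10 of 20, with a median of 1.23, Ciita by 7.90 ± 0.25 (edgeR adjusted p = 8.7e-10) and H2-DMb1 by 2.54 ± 0.29. The 2 sets were divided on class II UMIs, so this too is no independent result. Ctss was not called at 0.85. The genes shared by conventional dendritic cells were higher in 6 of 7, with a median of 2.62. Flt3 was higher by 2.62 ± 0.23, Itgax by 4.55 ± 0.25 and Id2, a repressor that dendritic cells need, by 1.65 ± 0.22. Cst3, an abundant protease inhibitor of dendritic cells and monocytes, was not called at 0.71. Of 12 listed mature dendritic cell genes 9 were tested and 8 were higher, with a median of 3.98, Ccr7 among them by 4.56 ± 0.42. Of 12 listed B cell genes 6 were tested and 6 were higher, with a median of 4.48. Cd79a and Cd79b were absent from both sets by choice and were not tested. A gene near 0 in monocyte-like cells could be tested through its counts in members alone, so these counts favour genes higher in members. Cd7, an immunoglobulin-family receptor of lymphoid cells, was higher by 7.37 ± 0.34. Some genes were lower: Nrg1, a growth factor, at -3.07 ± 0.40, Tfec, a factor of macrophages, at -2.32 ± 0.22 and Mpo, myeloperoxidase, at -2.00 ± 0.46. Interferon-induced genes were higher in 15 of 31, with a median of 1.09. The stromal list was lower in 4 of 4 (0 under DESeq2), and the part of stromal RNA in the monocyte-like set was not tested.

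A further comparison, added after the data were seen, set members against the class II-high cells that the Cd79 limit removed. The 2040 class II-high cells included 1219 with Cd79a or Cd79b UMIs and none of the other excluded genes, 30 with Siglech alone, 74 with C1q alone and 61 with several. Of the 1219, 931 had at least 3 Cd79 UMIs and are called Cd79-rich. They were compared in 4 libraries: those labelled MA9 Δ/Δ PBS, MA9 f/f Arac+Dox and MA9 Δ/Δ Arac+Dox, and HM Arac+Dox. Their median UMI counts there were 1646, 3538.5, 1320.5 and 2337.5, below those of members. Of 8877 genes, 563 were higher in members (6.34%) and 340 lower (3.83%). The B cell list was lower in 9 of 10, which is no independent result, since the cells were divided on B cell genes. Pax5, the factor that holds B cell identity, was lower at -6.03.

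The class II loading genes split in this comparison: 5 of 19 were higher, 3 lower, and the median was 0.06. After thinning to 2500 UMIs 2 of 16 were higher and 1 lower. That thinning kept 152 of the 812 Cd79-rich cells of MA9, and 3 libraries could be compared. H2-DMb1 was higher in members by 2.10 ± 0.18 (edgeR adjusted p = 8.3e-06), while its near copy H2-DMb2 was lower at -1.64 ± 0.20 (edgeR adjusted p = 0.00012). H2-Ob was lower at -1.86 ± 0.24 (edgeR adjusted p = 0.00016). Ciita was not called at 0.07 ± 0.22, nor was H2-Oa at -0.05 ± 0.19. H2-DMb1 and H2-DMb2 are similar enough in sequence that counting can split reads between them, so their opposite signs carry that uncertainty. The promoters of both H2-DMb1 and H2-Ob printed above hold the TGATTGG letters. Ctss was higher by 1.28 ± 0.16 and Ctsb, another endosomal protease, by 1.43 ± 0.14.

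Dendritic and monocyte genes were higher in members than in Cd79-rich cells. The genes shared by conventional dendritic cells were higher in 5 of 6, with a median of 2.55: Flt3 by 2.54 ± 0.23, Itgax by 4.65 ± 0.40, Ckb, the brain creatine kinase, by 3.91 ± 0.34, Id2 by 2.57 ± 0.21 and Cst3 by 2.15 ± 0.27. Bcl11a was not called at 0.15. Of 10 monocyte genes, 8 were higher, with a median of 2.30, and 4 of 7 after thinning. Interferon-induced genes were higher in 18 of 30, with a median of 1.55, among them Irf7 by 2.67 ± 0.23; the count was 10 of 26 without the MA9 library labelled Δ/Δ Arac+Dox, and after thinning 8 of 19. The mature dendritic cell list gave 1 higher and 1 lower of 7, with Ccr7 lower at -1.86 ± 0.29. Meis1 was higher by 1.30 ± 0.28, a call lost under DESeq2, with any Cd79 UMI in place of 3, and without either library labelled MA9 Δ/Δ.

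The Cd79 limit cuts a graded range, so MA9 class II-high cells were divided by their Cd79a and Cd79b UMIs and thinned to 1000 UMIs each, with shallower cells left out. A Hoxa9 UMI was found in 20.3% of members (95% interval 16.95 to 24), 18.1% of cells with 1 Cd79 UMI, 7.69% with 2 and 3.35% with at least 3 (2.2 to 4.87). Meis1 ran 15.6%, 13.4%, 2.89% and 2.19%, and Flt3 ran 14.6%, 13.4%, 2.89% and 0.644%. The B cell factor Ebf1 ran the other way, at 1.33%, 9.45%, 51.0% and 67.4%, as did the surface protein Ms4a1, at 0.759%, 7.09%, 28.9% and 53.2%. Cells with 1 Cd79 UMI thus resembled members in Hoxa9, Meis1 and Flt3, and cells with 2 lay nearer the Cd79-rich cells. Elane, which B and dendritic cells should lack, was found in 12.7%, 18.9%, 22.1% and 19.6%, and S100a8 in 33.0%, 35.4%, 43.3% and 38.0%. The part of such RNA in the other shares was not tested. Median UMIs before thinning were 3664, 4336, 1456 and 1524.

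**Figure D4:**
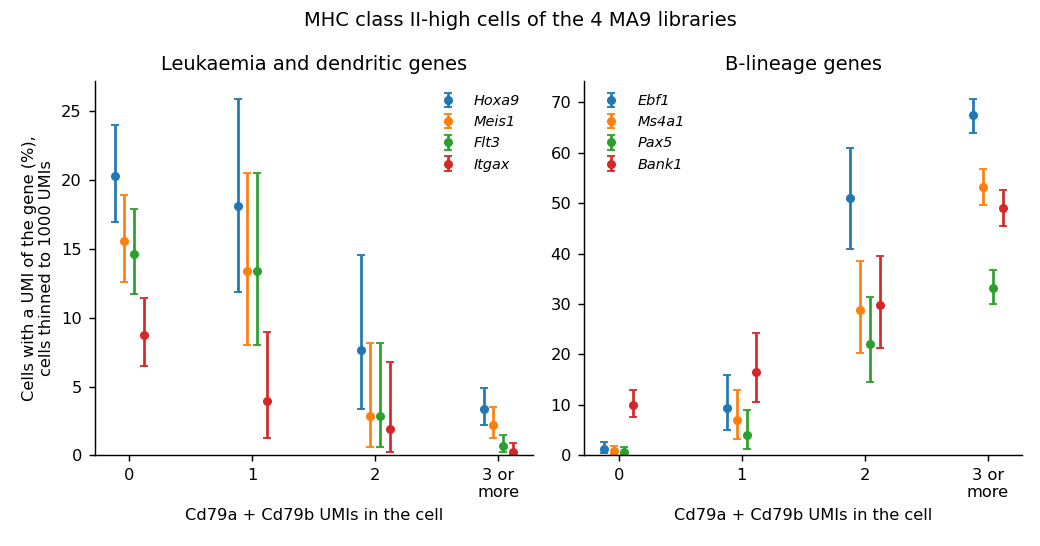
Percent of class II-high cells of the 4 MA9 libraries with a UMI of each gene after thinning to 1000 UMIs (shallower cells left out), by number of Cd79a and Cd79b UMIs, with exact 95% intervals. Hoxa9 drops from 20.3% to 3.35% and Ebf1 climbs from 1.33% to 67.4% from members to cells with at least 3. Before thinning, 387 and 386 of the 812 cells with at least 3 came from the libraries labelled Δ/Δ.

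Members were mixed. Leiden clustering gave 10 clusters at a resolution of 1, and 7 at 0.5. The way clusters were named was settled after they were seen, and the genes that lead a cluster describe it with no test. A cluster of 98 members was monocyte-like, with 8 of 10 monocyte markers at least 2-fold above the other members and Slc11a1, Clec4n and Fn1 among its leading genes. It also had 6 of 14 macrophage markers, Apoe among its leading genes, and 3 of 11 type 2 markers (Cd209a, Sirpa and Cd300a). A cluster of 81 was like type 1 conventional dendritic cells, with 9 of 12 markers. It also had 4 of 11 type 2 markers (Cd209a, Clec10a, Mgl2 and Cd300a) and 4 of 12 mature dendritic cell markers, so that other dendritic types may be mixed in. Xcr1 was found in 8.64% of its cells and Clec9a in 19.75%. Its cells came from HM alone, 4 and 77 from its libraries, so that it may be the library. A cluster of 15 was like mature dendritic cells, with 11 of 12 markers, with Fscn1 and Il4i1 among its leading genes beside the eosinophil granule genes Prg2 and Prg3. A cluster of 73 was like granulocytic progenitors, with 6 of 6 markers. It held 36 of the 41 doublets and had a median of 11659 UMIs. The other 6 clusters were not named. One of 93 cells had 4 of 11 plasmacytoid markers (Tcf4, Ly6d, Runx2 and Spib), and one of 114 was led by the interferon-induced genes Ifit2 and Ifit1. Flt3 was 2.09-fold and 3.12-fold above the other members in these, and Hoxa9 2.06-fold and 3.02-fold. One of 66 cells had Flt3 at 3.69-fold and Hoxa9 at 2.49-fold. Bcl11a and Meis1 were also at least 2-fold higher in each of these clusters, which held MA9 cells alone. One of 62 MA9 cells had Flt3, but not Hoxa9, at least 2-fold higher. The other members included those of HM, where Flt3 and Hoxa9 were low. One of 32 had the lymphoid genes Ebf1, Dntt and Gata3 among its leading genes.

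Members of MA9 libraries were then compared in pairs of libraries. A gene was counted where CPM was at least 20 in either library, the ratio was at least 2-fold and its exact interval excluded no difference. Ratios are of CPM, over 352316 member UMIs under f/f PBS, 546555 under Δ/Δ PBS, 269500 under f/f Arac+Dox and 1346393 under Δ/Δ Arac+Dox, so that equal UMI counts are not equal levels. These are counts by size, not tests, and the pairs share libraries. Members of a pair also fell into different clusters, which were made with these same genes, and the part of that make-up in each ratio was not tested. HM was not compared, since HM PBS held 9 members.

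With PBS, members of the library labelled Δ/Δ had more interferon-induced RNA and less neutrophil RNA than those of the library labelled f/f. Of 6513 genes, 295 were higher (4.53%) and 256 lower (3.93%), with a median log2 ratio of 0.10. Of 27 interferon-induced genes 13 were higher and none lower, with a median of 1.07, and 8 of 24 were after thinning to 2500 UMIs. In the other kept cells of the same libraries 15 were higher, with a median of 1.09. Ifitm1, a viral entry inhibitor, counted 67 UMIs against 5, a log2 ratio of 3.11 (95% interval 1.82 to 4.78). Irf7 counted 101 against 31, a log2 ratio of 1.07. Cxcl10, an interferon-induced attractant of T cells, counted 32 against 0, at least 6.88-fold higher than a floor of 3 counts. The neutrophil list was lower in 7 of 10 and higher in 1, with a median of -2.49. Camp counted 47 UMIs against 1872, a log2 ratio of -5.95 (-6.40 to -5.53), and S100a9 1026 against 5528, a log2 ratio of -3.06. With doublets removed the neutrophil list gave 3 lower of 8 and a median of 0.01. In the other kept cells 8 of 10 were lower. Doublets were 10 of 75 members against 9 of 123. The cluster led by Ifit2 and Ifit1 held 26 of the 123 members labelled Δ/Δ and 4 of the 75 labelled f/f, and the monocyte-like cluster 26 and 30. The progenitor list was higher in 4 of 9, among them Sox4, a factor of immature cells, at 93 against 5 UMIs, a log2 ratio of 3.58 (2.31 to 5.24). Cd209a was lower at 56 against 121 UMIs, a log2 ratio of -1.75. Of 18 class II loading genes, 1, March1, was lower.

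With Arac+Dox, members of the library labelled Δ/Δ had more cell cycle RNA and less of several cytokine and monocyte RNAs than those of the library labelled f/f. Of 6601 genes, 484 were higher (7.33%) and 426 lower (6.45%), with a median of 0.03. Of 26 cell cycle genes 11 were higher and none lower, with a median of 0.74, against 0 in the other kept cells, with a median of 0.09. With doublets removed the count was 10. A cluster with the division genes Anln and Melk among its leading genes held 47 of the 282 members labelled Δ/Δ and 2 of the 54 labelled f/f, and the monocyte-like cluster 17 and 24. Top2a, the topoisomerase of dividing cells, counted 757 UMIs against 59, a log2 ratio of 1.36, and Rrm1, a subunit of ribonucleotide reductase, 198 against 11, a ratio of 1.85. Ribosome biogenesis genes were higher in 7 of 20, against 15 in the other cells and 4 of 19 after thinning. Mpo counted 1945 UMIs against 20, a log2 ratio of 4.28 (3.65 to 4.997), with 1.59 in the other cells. The cytokine list was lower in 7 of 14 and higher in 1, with Cxcl2, an attractant of neutrophils, at 43 against 63 UMIs, a log2 ratio of -2.87. The monocyte list was lower in 4 of 10, with Fn1, fibronectin, at 14 against 49, a log2 ratio of -4.13. The mature dendritic cell list was lower in 3 of 7, with Fscn1, an actin bundler of migrating dendritic cells, at 12 against 29, a log2 ratio of -3.59. Within the genes shared by conventional dendritic cells directions split: Itgax counted 121 against 3, a log2 ratio of 3.01 (1.43 to 5.31), and Flt3 186 against 17, a ratio of 1.13, while Cst3 and Id2 were lower at -1.43 and -1.48.

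Between the libraries labelled f/f, members given Arac+Dox had more mature dendritic cell RNA and less Cd209a than those given PBS. Of 6360 genes, 281 were higher (4.42%) and 214 lower (3.36%), with a median of 0.05. The mature dendritic cell list was higher in 4 of 7, with a median of 1.28, and in 4 with doublets removed. In the other kept cells 1 was higher and 1 lower. The cluster like mature dendritic cells held 4 of the 54 members given Arac+Dox and 1 of the 75 given PBS, so that few cells stand behind these values. Over all members, Fscn1 stood at 799.9 CPM in that cluster and 2.81 in the rest. Fscn1 counted 29 UMIs against 0, at least 12.6-fold higher than a floor of 3 counts. Ccr7 counted 18 against 3, a log2 ratio of 2.97 (1.20 to 5.38), and Il4i1, an amino acid oxidase of mature dendritic cells, 38 against 15, a ratio of 1.73. Slc7a11, the cystine transporter, counted 45 against 0, at least 19.6-fold higher by the same floor, while the other kept cells gave a log2 ratio of -0.02. Cd209a counted 9 against 121, a log2 ratio of -3.36, Itgax 3 against 31, a ratio of -2.98 (-5.34 to -1.30), and Flt3 17 against 52, a ratio of -1.23. The neutrophil list was lower in 8 of 9, with a median of -2.66, but with doublets removed it gave 1 lower and 1 higher of 6, and in the other kept cells 2 were lower.

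Between the libraries labelled Δ/Δ, members given Arac+Dox had more granulocyte progenitor and cell cycle RNA than those given PBS. Of 6578 genes, 232 were higher (3.53%) and 208 lower (3.16%), with a median of -0.01. All 6 granulocyte progenitor genes were higher, with a median of 3.07, and 6 with doublets removed, at 3.46. In the other kept cells 0 of these were counted, with a median of 0.75. Elane counted 2456 UMIs against 44, a log2 ratio of 4.50 (4.07 to 4.97), and Mpo 1945 against 103, a ratio of 2.94. Cell cycle genes were higher in 11 of 26, and in 9 with doublets removed. The cluster with Anln and Melk among its leading genes held 47 of the 282 members given Arac+Dox and 11 of the 123 given PBS. The cluster like granulocytic progenitors held 23 and 13. Spp1, osteopontin, counted 251 against 3, a log2 ratio of 5.09 (3.52 to 7.37), with 0.15 in the other cells. The B cell list was lower in 4 of 5, with Bank1 at 92 against 102 UMIs, a ratio of -1.45. Cd209a was lower again, at 31 against 56, a ratio of -2.15. The part of granulocyte RNA from other cells in these ratios was not tested.

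**Figure D5:**
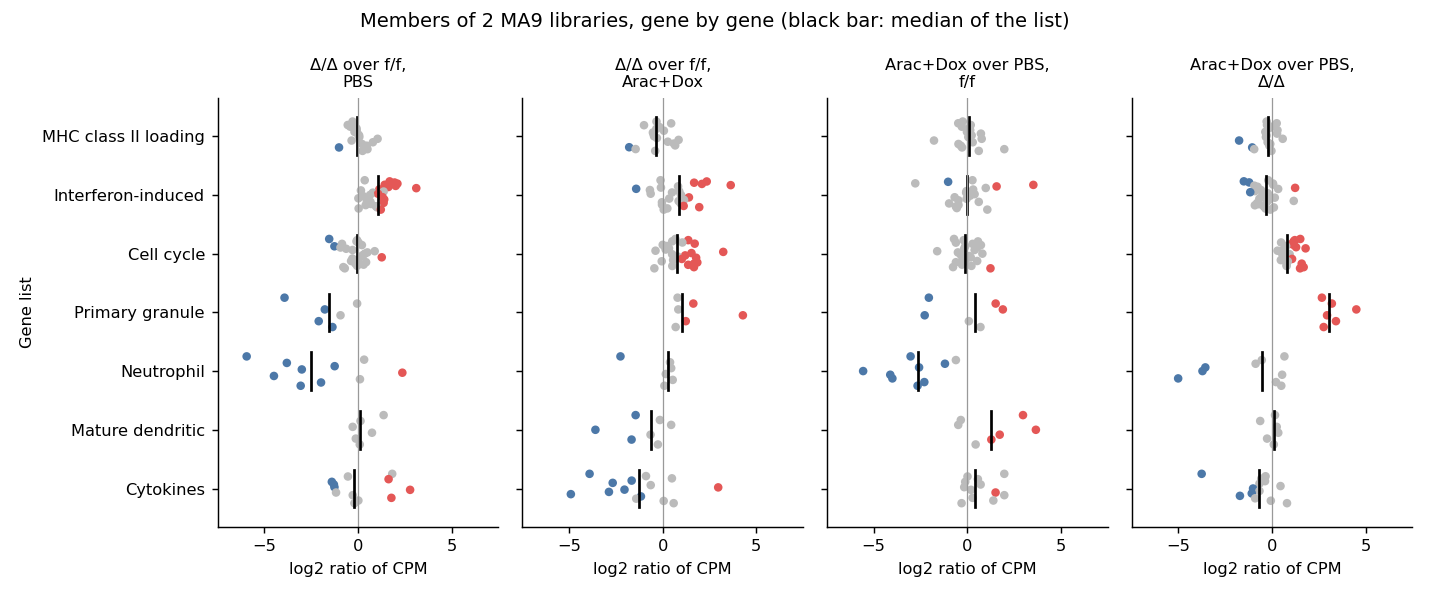
Log2 ratio of CPM between members of a pair of MA9 libraries, 1 panel per pair, with a point per gene of 7 lists (red counted higher, blue counted lower, grey not counted) and a black bar at the list's median; primary granule is the granulocyte progenitor list. Its median lies at 3.07 for Arac+Dox over PBS between the libraries labelled Δ/Δ, and the neutrophil median at -2.66 between those labelled f/f.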

How the data were processed

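The deposited files hold UMI counts, whole numbers without normalisation, and per the submitters' processing notes the authors ran Cell Ranger 3.0.2 on mm10. MA9 matrices list 31053 features and HM matrices 32285, and the 30406 genes in both were used. Per the labels' protocols a Chromium 3′ v2 kit was used. The headers of the MA9 matrices give Cell Ranger 3.0.2, while those of HM name no software.

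Counts were summed per library and cell set and tested with edgeR 4.0.16 (R 4.3.3; filterByExpr, TMM, quasi-likelihood, library as a block), in libraries with at least 20 cells in both sets. The genes of the rule and Cd74 were not tested, nor Csf1r, Fn1 and F13a1 against monocyte-like cells. DESeq2 1.42.0 was an alternative. Same-numbered sums come from the same library, which is the pairing. Clusters came from 2000 variable genes and 20 components (scanpy 1.11.5, leidenalg 0.10.2), and intervals from scipy 1.17.1. The edgeR step was tested on simulated data. Scrublet's automatic threshold marked under 0.5% in 4 libraries, where the mean threshold of the others was used. Replicate libraries of a group were not analysed here, so p-values measure the spread between these libraries.

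The members and lists were chosen with earlier results of these data known. Of 452 listed genes 449 were matched. Named genes are the rule and list genes, and per comparison the 10 largest and 10 smallest folds among called genes at 20 CPM or more with 1 sign in every library. Genes of haemoglobin, immunoglobulins, T cell receptors, ribosomal proteins, mitochondria and the sex chromosomes are not named. A gene is left out of the text because it is withheld.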

Additional observations from a re-analysis of the deposited data

Results flagged for a closer look

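Cells over the mitochondrial limit were left out of every comparison. Among them, 4 of 406 in the MA9 library labelled Δ/Δ Arac+Dox met all other limits of the rule (0.985%, exact 95% interval 0.269 to 2.50). The count was 0 of 102, 0 of 275 and 0 of 94 in the other MA9 libraries, 2 of 4515 in HM PBS and 1 of 243 in HM Arac+Dox. The 4 cells are given because they are more than the 3 counts that a count of 0 allows. The exact upper bounds of the MA9 libraries at 0 were 3.55%, 1.33% and 3.85%, all above that share.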

How the results depend on the processing

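List counts of the pairs without doublets, after thinning or under other scaling, and the comparison with Cd79-rich cells, were added after seeing the data. With at least 10 class II UMIs the shares were 0.965% (MA9 library labelled Δ/Δ PBS), 2.41% (MA9 Δ/Δ Arac+Dox) and 1.84% (HM Arac+Dox). Against other cells, no block for the library gave 378 higher and 105 lower, 10 class II UMIs gave 784 lower, and leaving out 1 library gave 509 to 1053 higher and 327 to 788 lower, the last without HM Arac+Dox. Against monocyte-like cells, no block gave 162 and 21, thinning to 2500 UMIs 357 higher, and leave-outs 366 to 680 and 98 to 359 (366 and 98 without the MA9 library labelled Δ/Δ Arac+Dox, 107 lower without that labelled Δ/Δ PBS, 359 lower without HM Arac+Dox). Lower counts there were 122 under DESeq2, 303 with no filter, 344 with 10 class II UMIs and 314 without doublets. Against Cd79-rich cells, no block gave 177 and 124, thinning 95 and 96, and leave-outs 300 to 591 and 182 to 354 (300 and 182 without the MA9 library labelled Δ/Δ Arac+Dox, 224 lower without that labelled Δ/Δ PBS). Causes were not tested. In the pairs, a minimum of 50 CPM gave 167 and 152 (Δ/Δ against f/f, PBS), 290 and 261 (Δ/Δ against f/f, Arac+Dox) and 96 and 74 (Arac+Dox against PBS, Δ/Δ). Thinning to 2500 UMIs, which also left out shallower members, gave 187 higher, 265 higher, and 184 and 109 (Arac+Dox against PBS, f/f). Median-of-ratios scaling gave 239 higher and 321 lower for Δ/Δ against f/f with PBS (42.7% higher against 53.5%), and thinning 265 and 348 with Arac+Dox (43.2% against 53.2%). Named genes held their call in 208 of 220 values against other cells, 209 of 214 against monocyte-like cells and 196 of 196 against Cd79-rich cells. They were picked for large folds with 1 sign in every library, which favours such counts. Of listed genes called, 65 of 155, 45 of 89 and 67 of 115 held with no block, in the same order. After thinning 138 of 161, 90 of 97 and 56 of 95 held. Of listed genes, Il6 turned from -2.56 to 1.04 under DESeq2. Simulated 4-fold changes were recovered in 0.73, 0.94 and 0.92 of genes, and 2-fold in 0.17, 0.25 and 0.20. The simulation gave all genes the same spread and all libraries the same gene proportions, the changed genes aside. Recovery where libraries differ, as these do, was not tested. Comparisons with Siglech-positive and C1q-positive cells could not be fitted, with 0 and 1 libraries of at least 20 cells in both sets.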
